A study of Mus musculus with 7 samples.

Results

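The MS4A genes analysed here encode tetraspanning membrane proteins: Ms4a4a, Ms4a4b, Ms4a4c, Ms4a4d, Ms4a6b, Ms4a6c, Ms4a6d, Ms4a7 and Ms4a8a. Most are known from macrophages or their monocyte precursors, whereas Ms4a4b is a T cell protein and was dim on these arrays. The genes were chosen by name as members of 1 gene family, and each was read from the probe set annotated with its symbol alone. All 9 were measured among 22180 genes, each by 1 probe set. The samples were macrophages of the colon lamina propria from mice with colitis, sorted as CD45+ CD11b+ CD64+ MHCII+ Ly6C- cells and profiled on Affymetrix Mouse Gene 2.0 ST arrays. Colitis came from dextran sulphate sodium (DSS), an agent that damages the lining of the colon. The mice had 5% DSS over 5 days and then plain water over 3 days. Every mouse was Rictorfl/fl, meaning that both alleles of Rictor, a subunit gene of the kinase complex mTORC2, were floxed. The control group, LysM+/+, had no cre and was measured on 3 arrays. The LysM+/cre group had cre recombinase inserted into 1 copy of the LysM locus (gene Lyz2), so that cre is made in monocytes, macrophages and neutrophils, and was measured on 4 arrays. No group had cre without floxed Rictor, so Rictor loss, cre and the altered Lyz2 locus cannot be told apart. The labels number the samples without saying whether each came from 1 mouse, and they give no age, so p-values measure the spread between these samples.

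The MS4A family is a cluster of paralogs whose best known products are CD20 of B cells (Ms4a1) and the beta chain of the mast cell IgE receptor (Ms4a2). In the myeloid line some members are stage markers. Ms4a4c is typical of inflammatory monocytes and responds to interferon, whereas Ms4a7 is typical of mature tissue macrophages. In the inflamed colon, blood monocytes enter the lamina propria, lose Ly6C and gain MHC class II and CD64 as they mature. In people, variants near MS4A4A and MS4A6A are associated with the level of soluble TREM2, a lipid receptor of macrophages and microglia.

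In the RefSeq gene table of GRCm38.p6, which was used only for names and gene order, the whole family lies side by side on chromosome 19. Ms4a7 is followed by Ms4a4a, Ms4a4c, Ms4a4b and Ms4a6c, and after 1 predicted gene by Ms4a6b, Ms4a4d and Ms4a6d. Ms4a14 is the neighbour of Ms4a7 on its other side, and Ms4a8a lies farther off in that direction. The promoter windows of 2 pairs of neighbours are shown. Array values of Ms4a6b and Ms4a6c ran together (Pearson r = 0.96), while those of Ms4a4b and Ms4a4c showed no clear relation (r = 0.18). Ms4a4b was dimmer than the median gene, so its values cannot show whether that pair runs apart. Each window holds 250 bases before and 50 after the RefSeq start of the gene, 5′ to 3′ on the plus strand, and capitals mark the longest runs of bases that the pair shares without a mismatch. The windows lie at chr19:11443308-11443607 for Ms4a4b, chr19:11407411-11407710 for Ms4a4c, chr19:11518309-11518608 for Ms4a6b and chr19:11469118-11469417 for Ms4a6c.
Ms4a4b: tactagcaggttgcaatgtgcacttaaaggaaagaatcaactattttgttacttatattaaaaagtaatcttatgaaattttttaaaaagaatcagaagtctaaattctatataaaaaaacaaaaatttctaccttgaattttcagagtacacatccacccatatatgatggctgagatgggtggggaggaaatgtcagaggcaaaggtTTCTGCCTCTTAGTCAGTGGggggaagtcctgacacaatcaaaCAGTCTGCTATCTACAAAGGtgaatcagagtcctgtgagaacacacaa
Ms4a4c: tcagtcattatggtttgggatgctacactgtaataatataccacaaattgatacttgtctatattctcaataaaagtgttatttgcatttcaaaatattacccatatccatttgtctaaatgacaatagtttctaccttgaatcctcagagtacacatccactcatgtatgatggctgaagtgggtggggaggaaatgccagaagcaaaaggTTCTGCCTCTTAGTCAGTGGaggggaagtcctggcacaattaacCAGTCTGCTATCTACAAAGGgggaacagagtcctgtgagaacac
Ms4a6b: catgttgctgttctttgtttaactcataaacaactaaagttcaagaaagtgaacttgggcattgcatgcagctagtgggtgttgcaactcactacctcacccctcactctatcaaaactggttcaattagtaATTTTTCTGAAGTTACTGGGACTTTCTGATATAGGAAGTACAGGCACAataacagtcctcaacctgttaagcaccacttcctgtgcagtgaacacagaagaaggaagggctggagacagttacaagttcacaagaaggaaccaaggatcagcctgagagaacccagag
Ms4a6c: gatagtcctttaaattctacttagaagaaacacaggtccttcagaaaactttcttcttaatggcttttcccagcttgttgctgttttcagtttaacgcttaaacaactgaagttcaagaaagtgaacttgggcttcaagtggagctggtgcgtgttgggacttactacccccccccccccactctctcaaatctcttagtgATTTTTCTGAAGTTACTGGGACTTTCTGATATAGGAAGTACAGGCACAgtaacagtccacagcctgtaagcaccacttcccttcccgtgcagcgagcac

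Ms4a6b and Ms4a6c shared an unbroken run of 48 bases, and Ms4a4b and Ms4a4c 2 runs of 20 bases. In an alignment of the whole windows the order was the other way. Identical bases made up 78% of the window for Ms4a4b and Ms4a4c and 64.7% for Ms4a6b and Ms4a6c. Counted over the aligned bases alone, identity was 84.5% and 89.0%, so which pair is more alike depends on the measure. Among the other pairs of the 8 members with a listed window the longest shared run was 13 bases. The sequence GAGGAA, a form of the site that the myeloid factor PU.1 binds, was searched on both strands in all windows. Other forms of the site were not searched. It began at position -64 from the start in Ms4a4b and at -61 in Ms4a4c, and it was found in 3 of the 8 members in all, against 28.3% of 32851 promoter windows of the same length. The third was Ms4a7, where it lay after the start. Short sequences of the factors AP-1 (TGANTCA) and C/EBP (TTGCNNAA), N being any base, and the TATA box (TATAAA) were also searched. They were found in 3, 1 and 1 of the 8 members, against 7.81%, 10.8% and 13.6% of all windows. In Ms4a7 the AP-1 letters lay only in the window of another listed start. The interferon response element, searched on both strands as GAAA and GAAA with 2 free bases between, was found in 0 of the 8 members, against 3.44% of all windows, which says only that these letters are not in this stretch.

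The targeted gene did not separate the genotypes. Rictor read 7.76, 7.74 and 7.80 on the LysM+/+ arrays and 7.72, 7.76, 8.25 and 7.80 on the LysM+/cre arrays, all log2 intensities. The sources used here do not say where in Rictor the probes lie relative to the floxed part, so this is no check of the labels. The macrophage list, which holds genes of the sort and general macrophage genes, had mean log2 levels of 11.28 to 11.41 without cre and 11.40 to 11.63 with cre. Fcgr1, which encodes the CD64 of the sort, averaged 9.75 ± 0.45 (SD, n = 3) and 10.73 ± 0.34 (SD, n = 4), the macrophage growth factor receptor gene Csf1r 11.92 ± 0.29 and 12.00 ± 0.10, and the MHC class II gene H2-Ab1 13.25 ± 0.15 and 13.21 ± 0.42 without and with cre. Of the 8 genes 2 were higher and 1 lower at an unadjusted p under 0.05, against 6.56% and 4.93% of all genes. The higher ones were Fcgr1, by 0.97 ± 0.26 (SE, adjusted p = 0.362 in limma), and Itgam (0.53), and the lower one was Cd68 (-0.20), whose arrays did not overlap. Mertk was at -0.31. LysM+/+ array 2 stood apart in the early monocyte list, 13 measured genes such as Ly6c2, Ccr2 and Chil3. Its score, the mean log2 deviation of these genes from their means over all 7 arrays, was -0.90, against -0.21 and -0.098 on the other LysM+/+ arrays and 0.22 to 0.47 on the LysM+/cre arrays. That list also holds Lyz2, the gene that carries cre, and Itgam, a gene of the sort. The same array had the highest score of the mature and resident macrophage list (0.64, 15 genes) and the lowest of the neutrophil list (-1.36, 12 genes). Values that moved without it are given below.

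No member passed an adjusted p of 0.05 in limma's fit over all genes, in which 0% of genes passed, so the differences below are given as values. The smallest adjusted p of a member was 0.333. Of the 9 members 5 were higher and 4 lower with cre, with a median log2 difference of 0.16 against 0.0044 over all genes. At an unadjusted p under 0.05 there were 3 members, where 11.5% of all genes passed that mark. Of these, 2 were higher with cre, Ms4a6b and Ms4a6c, against 6.56% of all genes, and 1 was lower, Ms4a4d, against 4.93%. The same 3 were those whose arrays did not overlap between the genotypes, as was the case for 8.79% of all genes, 5.23% higher and 3.56% lower. The split over all genes depended on the scaling, with 1456 higher and 1093 lower as deposited and 1786 and 858 once array medians were set equal. The order of the differences ran from Ms4a4c at 1.54 through Ms4a6c, Ms4a6b, Ms4a8a, Ms4a6d, Ms4a4a, Ms4a4b and Ms4a7 to Ms4a4d at -0.65. In bulk samples such as these, fewer cells of a type and less RNA per cell cannot be told apart.

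**Figure D1:**
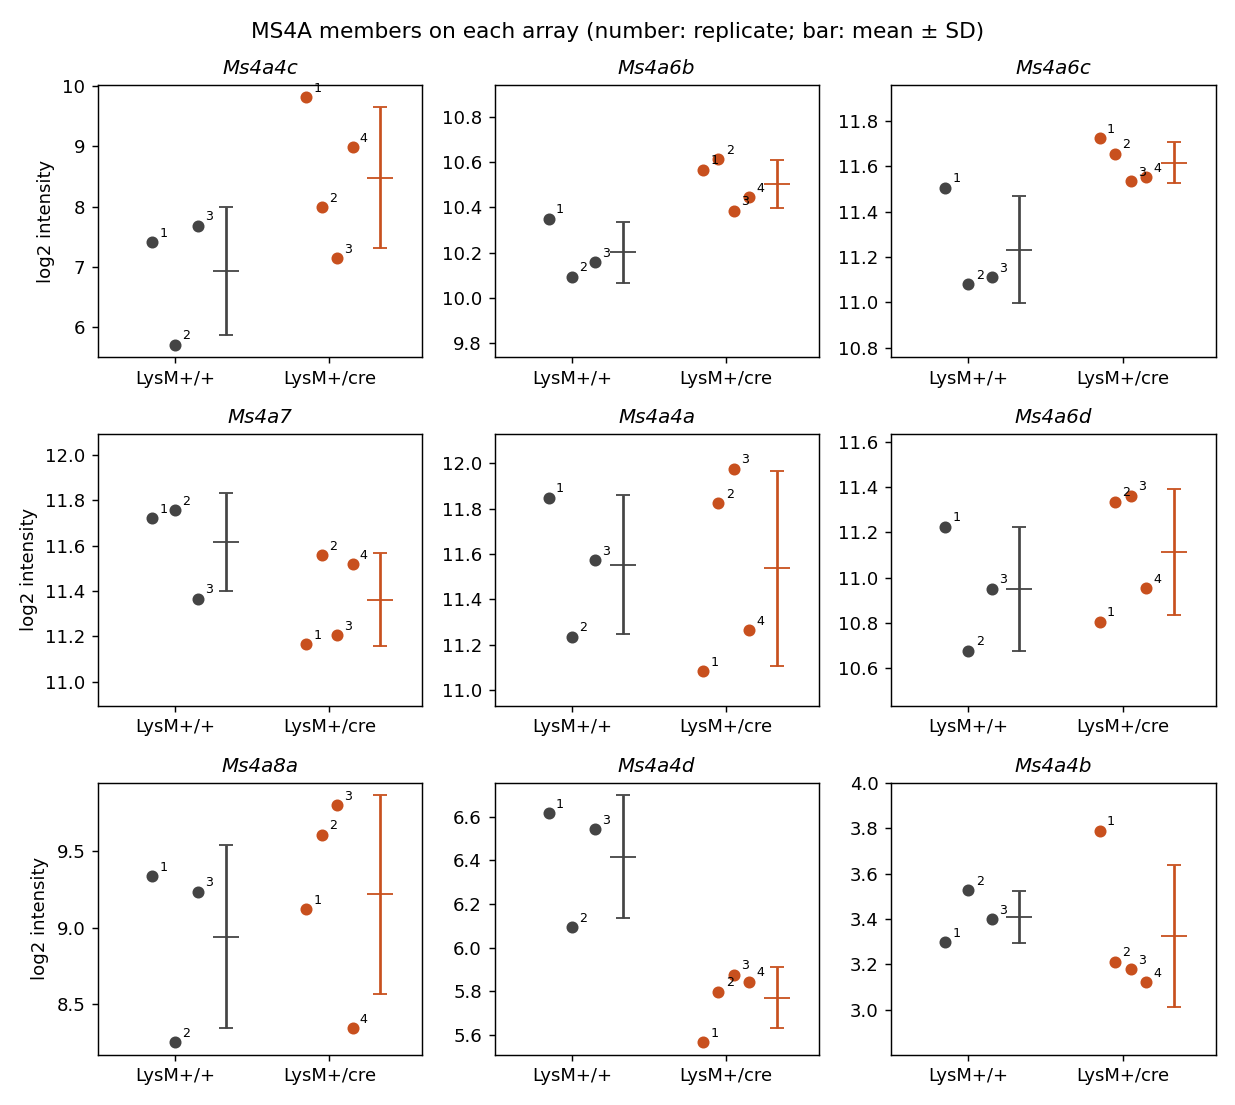
Log2 intensity of each MS4A member (vertical axis, scaled per gene) on the 3 LysM+/+ and 4 LysM+/cre arrays. Points are arrays with their replicate number and bars are mean ± SD. Ms4a6b, Ms4a6c and Ms4a4d have no overlap between the genotypes, and Ms4a4c spreads from 5.71 to 9.81.

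Ms4a4c, the monocyte member, had the widest spread of the family. It read 7.41, 5.71 and 7.68 on the LysM+/+ arrays and 9.81, 7.99, 7.14 and 8.98 on the LysM+/cre arrays. LysM+/cre arrays 1, 2 and 4 lay above every control, while LysM+/cre array 3 lay below 2 of them, so the groups overlapped. The mean was 6.93 ± 1.1 (SD, n = 3) without cre and 8.48 ± 1.2 (SD, n = 4) with cre, a log2 difference of 1.54 ± 0.73 (SE, adjusted p = 0.468 in limma). The 95% interval ran from -0.20 to 3.29. Without LysM+/+ array 2, the lowest, the difference was 0.94. Over all 7 arrays its SD was 1.32, against 0.16 for the median gene, and 45 genes of 22180 varied more.

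Ms4a6b and Ms4a6c are expressed by both monocytes and macrophages, and Ms4a6b is also known from T cells. Both were higher with cre by small amounts. The SD over all arrays was 0.19 for Ms4a6b and 0.25 for Ms4a6c, against 0.16 for the median gene. Ms4a6c read 11.51, 11.08 and 11.11 without cre and 11.72, 11.66, 11.53 and 11.55 with cre. Every LysM+/cre array was above every control, though LysM+/+ array 1 lay just below the lowest of them. The log2 difference was 0.38 ± 0.12 (SE, adjusted p = 0.394 in limma), a 1.30-fold higher signal, and it ran from 0.31 to 0.52 when 1 array was left out. Ms4a6b read 10.35, 10.10 and 10.16 without cre and 10.57, 10.61, 10.38 and 10.45 with cre. Its groups did not overlap either, and its difference was 0.30 ± 0.090 (SE, adjusted p = 0.394 in limma), with a range of 0.25 to 0.38 when 1 array was left out. The early monocyte scores given above also did not overlap between the genotypes. Of the 13 genes of that list 11 were higher with cre (51.4% of all genes were), with or without LysM+/+ array 2. Their part in the Ms4a6b and Ms4a6c differences was not tested. Ms4a6b and Ms4a6c are close paralogs, and whether their probes bind each other's transcripts was not tested, so their values may not be independent.

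Ms4a7, the marker of mature macrophages, was lower with cre on average. It read 11.72, 11.76 and 11.37 without cre and 11.17, 11.56, 11.21 and 11.52 with cre. LysM+/cre arrays 2 and 4 lay above LysM+/+ array 3, so the groups overlapped. The log2 difference was -0.25 ± 0.14 (SE, adjusted p = 0.537 in limma), with a 95% interval from -0.60 to 0.090. It was lower with cre in each of the fits that left out 1 array, between -0.38 and -0.18.

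The monocyte-type member was set against the macrophage-type member within each array, so that a shift shared by both would cancel. The log2 ratio of Ms4a4c to Ms4a7, centred on its mean over the 7 arrays because probe sets of different genes are not on one scale, was -0.66, -2.39 and -0.031 on the LysM+/+ arrays and 2.29, 0.082, -0.41 and 1.11 on the LysM+/cre arrays. Only LysM+/cre array 3 lay below a control. The ratio was higher by 1.80 with cre (SE 0.92). In an exact permutation test over all 35 assignments of the 7 arrays to groups this gave a two-sided p = 0.114, where the smallest p the design allows is 0.0286. The difference was therefore not distinguishable from the spread between arrays. Leaving out LysM+/+ array 2 gave 1.12, and leaving out LysM+/cre array 1 instead gave 1.29. Most of it came from Ms4a4c, whose own difference was 1.54.

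**Figure D2:**
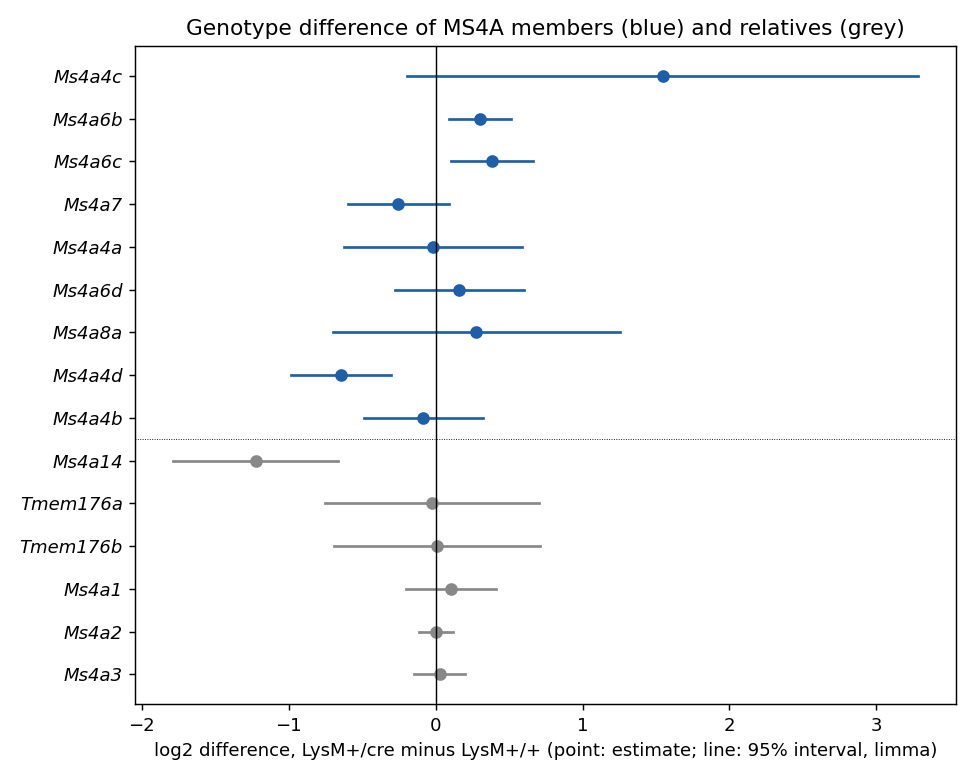
Log2 difference between LysM+/cre and LysM+/+ (horizontal axis) for the 9 members in blue and 6 relatives in grey. Points are limma estimates and lines are 95% intervals without adjustment for the number of genes. The intervals of Ms4a6b, Ms4a6c, Ms4a4d and Ms4a14 do not reach 0, and that of Ms4a4c runs from -0.20 to 3.29.

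Ms4a4a, Ms4a6d and Ms4a8a differed more within a genotype than between the genotypes. Ms4a4a, which alternatively activated macrophages carry and which associates with the fungal receptor dectin-1, read 11.85, 11.23 and 11.57 without cre and 11.08, 11.82, 11.98 and 11.26 with cre. Each genotype held high and low arrays, and the difference was -0.02 ± 0.26 (SE, adjusted p = 0.987 in limma) with a 95% interval from -0.62 to 0.59. Its direction turned under other settings, to 0.0084 with array medians set equal, and it lay between -0.17 and 0.14 when 1 array was left out. Ms4a6d, another macrophage member, read 11.23, 10.68 and 10.95 without cre and 10.81, 11.33, 11.36 and 10.95 with cre. The groups overlapped almost wholly (difference 0.16 ± 0.19 SE, adjusted p = 0.752 in limma), and without LysM+/+ array 2 the difference was 0.026.

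Ms4a8a, known from tumour-associated macrophages and from macrophages treated with interleukin 4 and a glucocorticoid, read 9.33, 8.25 and 9.23 without cre and 9.12, 9.60, 9.80 and 8.35 with cre. The low values belonged to LysM+/+ array 2 and LysM+/cre array 4, 1 of each genotype. The difference was 0.28 ± 0.41 (SE, adjusted p = 0.814 in limma), and without LysM+/+ array 2 it was -0.067. Epithelial markers were looked at beside it because epithelial RNA can enter a colon sort. All 12 were measured, their scores ran from -0.81 to 0.74 without cre and from -0.58 to 0.41 with cre, and their mean log2 levels from 6.75 to 8.31 and from 6.98 to 7.97. With cre 10 of the 12 were lower (51.4% of all genes were higher), and 6 without LysM+/+ array 2. Their part in the Ms4a8a values was not tested.

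Ms4a4d was the member with the smallest p. It read 6.61, 6.09 and 6.54 without cre and 5.57, 5.80, 5.88 and 5.84 with cre. All 4 LysM+/cre arrays lay below all 3 controls. The LysM+/cre values lay close to the mean of the median gene (5.55), and how far they stand above background is not known. The mean was 6.42 ± 0.28 (SD, n = 3) against 5.77 ± 0.14 (SD, n = 4), a log2 difference of -0.65 ± 0.14 (SE, unadjusted p = 0.00302, adjusted p = 0.333 in limma). The signal was 1.56-fold higher without cre, and the difference lay between -0.81 and -0.55 when 1 array was left out. The fibroblast and smooth muscle markers were also lower with cre as a median over 12 genes (-0.27), led by the matrix genes Dcn (-1.38) and Lum (-0.78). Their scores overlapped between the genotypes, from -0.022 to 0.44 without cre and from -0.39 to 0.17 with cre. Of 12 endothelial markers, 11 were lower with cre (51.4% of all genes were higher), and their scores overlapped too. Without LysM+/+ array 2 neither list overlapped, though for fibroblasts this was close to a tie. There LysM+/+ array 3 was at 0.176 and LysM+/cre array 2 at 0.171. For endothelium the remaining controls were at 0.043 and above and the LysM+/cre arrays at 0.0020 and below. The part of either list in the Ms4a4d difference was not tested.

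Ms4a4b, a T cell protein that associates with the receptor GITR, was dim. It read 3.30, 3.53 and 3.40 without cre and 3.79, 3.21, 3.18 and 3.12 with cre, and it was the member whose mean lay below that of the median gene (5.55). LysM+/cre array 1 stood above all other arrays. The difference was -0.08 ± 0.17 (SE, adjusted p = 0.871 in limma), and without LysM+/cre array 1 it was -0.24. Ms4a4b and Ms4a4c, whose promoter windows share the runs printed above, had a Pearson r of 0.18 over the 7 arrays (exact permutation p = 0.686, adjusted p = 0.944 over 36 pairs) and ranks that were uncorrelated. Without the 2 farthest arrays r was -0.47, and without LysM+/+ array 2 alone it was 0.60. Of 14 T and NK cell markers 12 were measured, and 9 of them were lower with cre (51.4% of all genes were higher). Their scores ran from 0.014 to 0.30 without cre and from -0.24 to 0.013 with cre, and their mean log2 levels from 5.73 to 6.01 and from 5.47 to 5.73. Their part in the Ms4a4b values was not tested. Tnfrsf18, which encodes GITR, was at a difference of -0.01.

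**Figure D3:**
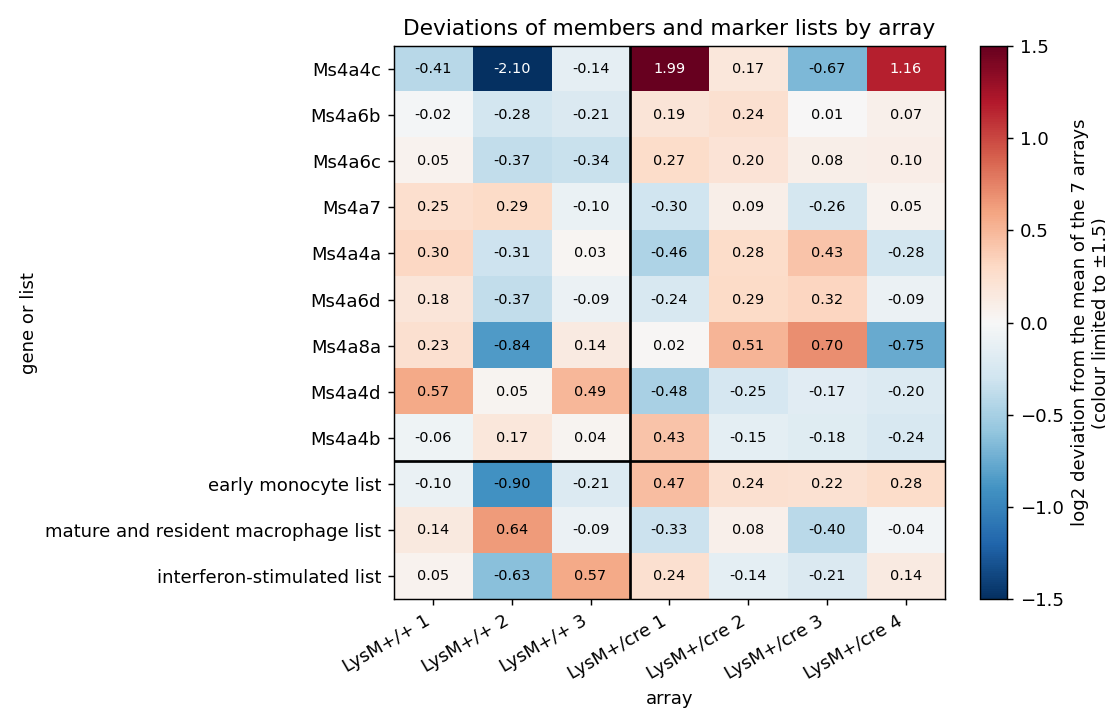
Log2 deviation of each member from its mean over the 7 arrays (rows above the line) and the scores of 3 gene lists (rows below it), by array in columns. Red is above and blue below the mean, with colour limited to 1.5 either way and the value printed in each cell. Ms4a4a, Ms4a6d and Ms4a8a share highs on LysM+/cre arrays 2 and 3, and Ms4a4c is at 1.99 on LysM+/cre array 1 and at -2.10 on LysM+/+ array 2.

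Some members ran together across arrays. All 36 pairs were correlated over the 7 arrays, with exact permutation over 5040 orderings and Benjamini-Hochberg adjustment over the 36. The pair Ms4a6b and Ms4a6c had the highest Pearson r, 0.96 (exact permutation p = 0.00119, adjusted p = 0.0429), with a Spearman rho of 0.96 (exact permutation p = 0.00278, adjusted p = 0.100). It was 0.97 without the 2 arrays farthest from the median, 0.94 without LysM+/+ array 2 and 0.90 with the genotype means removed. This was the pair whose windows share 48 bases, though a smaller part of its windows was identical than for Ms4a4b and Ms4a4c.

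Ms4a4a, Ms4a6d and Ms4a8a formed a second pattern, each below its mean on LysM+/+ array 2 and LysM+/cre array 4 and above it on LysM+/+ array 1 and LysM+/cre arrays 2 and 3. Ms4a4a and Ms4a6d had a Pearson r of 0.92 (exact permutation p = 0.0111, adjusted p = 0.200) and a rho of 0.89 (exact permutation p = 0.0123, adjusted p = 0.148). With genotype means removed their r was 0.98, and without the 2 farthest arrays 0.90. For Ms4a4a and Ms4a8a r was 0.78 (exact permutation p = 0.0454, adjusted p = 0.383) and rho 0.86 (exact permutation p = 0.0238, adjusted p = 0.171), and for Ms4a6d and Ms4a8a r was 0.82 (exact permutation p = 0.0250, adjusted p = 0.300) and rho 0.89 (exact permutation p = 0.0123, adjusted p = 0.148). Without the 2 farthest arrays these were 0.96 and 0.61, and without LysM+/+ array 2 alone 0.76 and 0.70. None of the 3 pairs held after adjustment. Ms4a4c and Ms4a7 had an r of -0.57 (exact permutation p = 0.185, adjusted p = 0.605) and a rho of -0.54 (exact permutation p = 0.236, adjusted p = 0.653). Without the 2 arrays farthest from the median of Ms4a4c it turned to 0.29, so the negative relation rested on those arrays. Without LysM+/+ array 2 alone it was -0.31.

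The members were then set against 3 lists that contain none of them: early monocyte genes, mature and resident macrophage genes, and interferon-stimulated genes. The 27 relations were adjusted together. They were added after the data were seen, with lists chosen knowing earlier results of these data, which the adjustment does not cover. The permutation also moves arrays across genotypes, so a genotype difference shared by member and list counts toward r and its p. Ms4a7 followed the mature macrophage score, with r = 0.91 (exact permutation p = 0.00119, adjusted p = 0.0161) and rho = 0.96 (exact permutation p = 0.00278, adjusted p = 0.0375). That relation was 0.97 without the 2 farthest arrays, 0.96 without LysM+/+ array 2 and 0.86 with genotype means removed. That list includes the complement genes C1qa to C1qc, the efferocytosis receptor gene Mertk and the scavenger receptor gene Cd163, and 11 of its 15 measured genes were lower with cre (median -0.12), where 51.4% of all genes were higher. Without LysM+/+ array 2 the lower ones numbered 9. At an unadjusted p under 0.05 there were 2, both lower with cre. Over all genes the share at that mark was 11.5%, with 4.93% lower.

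Against the early monocyte score, 2 members passed adjustment by Pearson's r and 1 of them also by rho. Ms4a6c had r = 0.89 (exact permutation p = 0.000595, adjusted p = 0.0161) and rho = 0.96 (exact permutation p = 0.00278, adjusted p = 0.0375). It was 0.79 without the 2 farthest arrays, 0.86 without LysM+/+ array 2 and 0.67 with genotype means removed. For Ms4a6b r was 0.88 (exact permutation p = 0.00218, adjusted p = 0.0196) and rho 0.89 (exact permutation p = 0.0123, adjusted p = 0.111), with 0.69 without the 2 farthest arrays, 0.85 without LysM+/+ array 2 and 0.62 with genotype means removed. Ms4a4c passed neither, with r = 0.85 (exact permutation p = 0.0115, adjusted p = 0.0777) and rho = 0.86 (exact permutation p = 0.0238, adjusted p = 0.161), and r was 0.75 without the 2 farthest arrays and 0.69 without LysM+/+ array 2. With genotype means removed its r was 0.76, above those of Ms4a6c and Ms4a6b. Ms4a4c against the interferon list gave r = 0.66 (exact permutation p = 0.102, adjusted p = 0.412) and rho = 0.71 (exact permutation p = 0.0881, adjusted p = 0.396), which did not pass. It was 0.83 without the 2 arrays farthest in the list score, 0.84 with genotype means removed and 0.30 without LysM+/+ array 2. Each genotype has too few arrays for a correlation of its own.

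**Figure D4:**
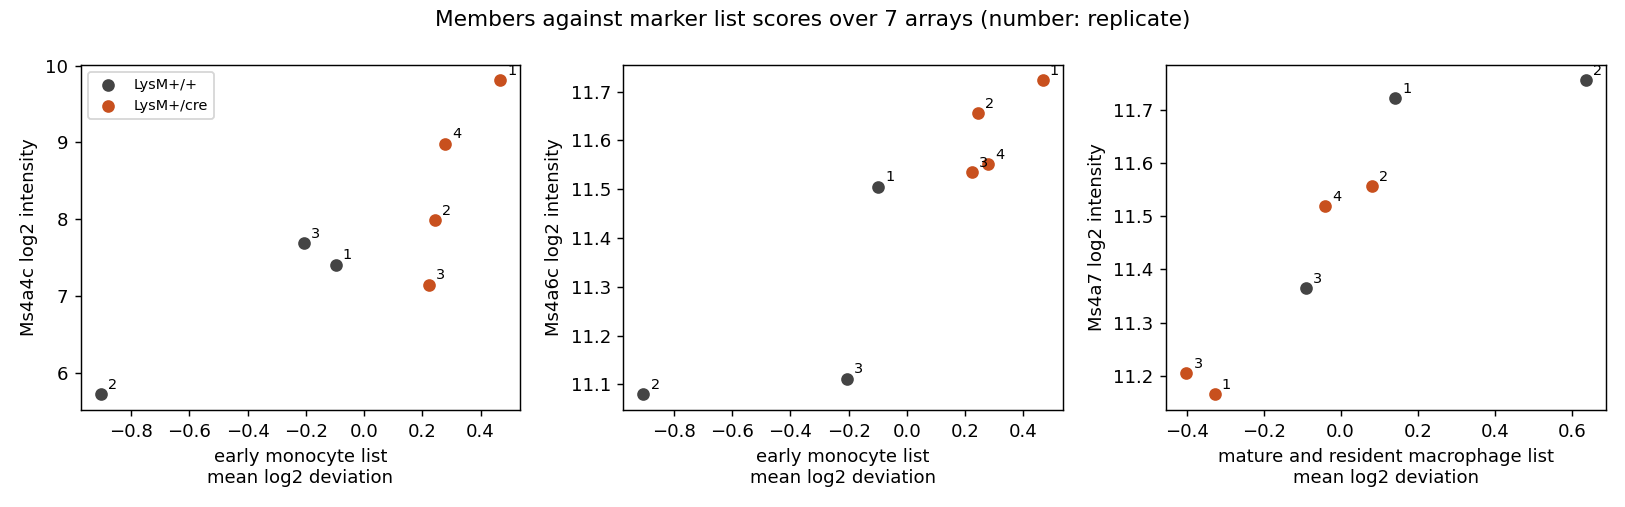
Log2 intensity of Ms4a4c and Ms4a6c against the early monocyte score, and of Ms4a7 against the mature and resident macrophage score (horizontal axes, mean log2 deviation of the list). Each point is 1 of 7 arrays, grey for LysM+/+ and orange for LysM+/cre, with its replicate number. Ms4a7 and its list are highest on LysM+/+ array 2, where Ms4a4c and Ms4a6c are lowest.

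Among 6741 genes that were brighter and more variable than the median gene, those most like Ms4a4c over the 7 arrays were Ogfr (r = 0.98), Oas3 (0.98), Zfp667 (0.98), Marchf5 (0.98) and Slfn1 (0.98). Oas3 encodes an interferon-induced sensor of double-stranded RNA. The genes most like Ms4a7 were the interferon regulatory factor gene Irf1 (0.98), B3galnt1 (0.97), the T cell costimulatory ligand gene Icosl (0.95), the ficolin gene Fcna (0.95) and Spin1 (0.95). These are descriptions over 7 arrays that share scaling, picked as the highest of the 6741, and 116 genes had an r over 0.9 with Ms4a4c and 31 with Ms4a7. Slfn1 held the same value, 6.65, on LysM+/+ arrays 1 and 3 and on LysM+/cre arrays 2 and 3. Ogfr, Marchf5 and Icosl each repeated a value as well, which limits what their r can show.

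Of 14 listed relatives 13 were measured, and 0 passed the adjusted threshold. At an unadjusted p under 0.05 there was 1, where 11.5% of all genes were at that mark. The B cell gene Ms4a1 averaged 4.11 ± 0.27 and 4.22 ± 0.085 (SD, n = 3 and 4), the mast cell gene Ms4a2 3.40 ± 0.0048 and 3.41 ± 0.016, and Ms4a3, a marker of granulocyte and monocyte progenitors, 5.12 and 5.15. All 3 lay below the mean of the median gene. The related channel genes Tmem176a and Tmem176b were bright and did not separate the genotypes. Tmem176b averaged 10.50 ± 0.35 and 10.51 ± 0.50, a difference of 0.01 with a 95% interval from -0.69 to 0.71.

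Ms4a14 was the relative at an unadjusted p under 0.05, singled out after its values were seen. It read 9.21, 9.78 and 9.38 without cre and 7.65, 8.47, 8.33 and 8.47 with cre. All LysM+/cre arrays lay below all controls, by a log2 difference of -1.23 ± 0.24 (SE, unadjusted p = 0.00138, adjusted p = 0.328 in limma), or 2.34-fold higher without cre. The difference lay between -1.35 and -1.03 when 1 array was left out. Against its neighbour Ms4a7 its r was 0.73 and its rho 0.75 (exact permutation p = 0.0704 and 0.0663), with 0.35 without the 2 farthest arrays and 0.60 without LysM+/+ array 2.

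Genes whose products are known to work with MS4A proteins gave 2 of 8 at an unadjusted p under 0.05, both higher with cre, against 6.56% of all genes. They were the adaptor genes Tyrobp (DAP12), at 0.31 ± 0.10 (SE), and Fcer1g, at 0.27 ± 0.098 (SE). None passed adjustment. The kinase gene Syk was at 0.33 ± 0.17 (SE), and Clec7a, which encodes dectin-1, the partner of Ms4a4a, at 0.58 ± 0.30 (SE). Trem2 was at 0.085 with arrays of both genotypes between 8.37 and 9.21. In the early monocyte list 2 of 13 genes were at an unadjusted p under 0.05, both higher with cre. Over all genes the share was 11.5%, with 6.56% higher. The 2 monocyte genes were Itgam (0.53) and Ly6c2 (1.09), and the third smallest p belonged to Chil3 (2.36). Ly6c2, which encodes the Ly6C that the sort selected against, read 6.87, 7.15 and 7.70 without cre and 9.30, 7.69, 7.87 and 8.48 with cre. LysM+/cre array 1, the highest in Ms4a4c, was also the highest in Ly6c2, and LysM+/cre array 2 overlapped the controls. In the mature macrophage list the smallest p-values belonged to Timd4 (-0.96), Cd163 (-0.90) and Lyve1 (-1.73). In the interferon list, with 6 of 12 genes higher, they belonged to Cxcl10 (-0.86), Zbp1 (0.93) and Irf7 (0.84). That list's median was 0.0085, and without LysM+/+ array 2 it was -0.24 with 3 genes higher. In the alternative activation and glucocorticoid list, the setting known for Ms4a8a and Ms4a4a, 5 of 14 genes were lower and 1 higher at an unadjusted p under 0.05, against 4.93% and 6.56% of all genes, led by Zbtb16 (-1.54), Tgm2 (1.04) and Irf4 (-0.91). Chil3 and Cd163 are in that list as well.

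Markers of other cells gave these smallest p-values, as log2 differences: Cd3d (0.21) and Cd4 (-0.70) for T and NK cells, Cd79b (0.39) and Cr2 (0.28) for B cells, and Tpsb2 (0.30) and Kit (-0.88) for mast cells and eosinophils. For neutrophils they were Mmp9 (1.35) and Il1r2 (0.65), with all 12 genes higher and scores of -1.36 to 0.51 without cre and -0.36 to 1.56 with cre. Over all genes 51.4% were higher. Without LysM+/+ array 2, 7 of the 12 neutrophil genes were higher, with a median of 0.030 against 0.46 with it. For dendritic cells they were Zbtb46 (-0.38) and Flt3 (-0.74), for endothelium Tek (-0.47) and Robo4 (-0.30), and for epithelium Car4 (-0.94) and Slc26a3 (-1.07). No listed marker lies at 0 on this scale, and the part of these cells in the MS4A values was not tested.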

How the data were processed

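Each sample was read on 1 array, and the authors deposited a log2 intensity for every probe set. The series' design text names Affymetrix Expression Console, and the submitters' processing notes name Transcriptome Analysis Console. The sources used here state no version, summarisation or background correction. Array medians lay between 5.16 and 5.22, so the arrays appear scaled to one another, and a change common to all genes would not show. Of 41345 probe sets 23521 had 1 symbol in the platform annotation, 1814 had several and 16010 none. The brightest probe set per gene gave 22180 genes.

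The 4 LysM+/cre arrays were set against the 3 LysM+/+ arrays in limma (version 3.58.1, R 4.3.3; lmFit and eBayes, no covariates, two-sided), and p-values were adjusted by Benjamini-Hochberg over all genes at 0.05. Tested on 20 simulated data sets of 22180 genes for this comparison, the fit called 73.8% of the genes set to change 2-fold and 94.2% of the 4-fold ones. Of its calls 5.49% were false. The simulated noise was independent for each gene, with nothing shared across an array, so these rates need not hold for the real arrays. Correlations and the Ms4a4c to Ms4a7 ratio used exact permutation in Python 3.11.15. The members and lists were chosen with earlier results of these data known, and the relations between members and list scores and the values without LysM+/+ array 2 in lists and correlations were added after the data were seen. All 9 members were named, and from each list up to 3 genes of smallest p (2 for markers of other cells). A further 5 genes per pattern were named by correlation, and Clec7a, Trem2, Tnfrsf18, Ccr2 and the genes of the sort for their role. Proteins were not compared. Promoters are from RefSeq, build GRCm38.p6, with 8 of 9 members matched. The number of arrays limits the precision.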

Additional observations from a re-analysis of the deposited data

Results flagged for a closer look

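Among 60 genes checked, 8 had 1 LysM+/cre array far from the other 3 by Dixon's criterion at 95%. Chance flags about 1 in 20 groups. Of the members only Ms4a4b was among them, at 3.79 on LysM+/cre array 1, where Cd3d was also apart at 5.30 and Il1r2 at 12.40. The other 3 arrays hold 1 shared value of Cd3d, and likewise of Ms4a2, which stood at 3.43 on LysM+/cre array 2. Slc26a3 was at 7.06 on that array, and its other LysM+/cre values differed from one another. On LysM+/cre array 3 Chil3 was at 9.56 and Rictor at 8.25, and on LysM+/cre array 4 Cr2 was at 4.56. Chil3 held the same value, 6.91, on LysM+/cre arrays 2 and 4, and Cr2 the same value, 4.13, on LysM+/cre arrays 1 and 3. Such repeats make it easier for the remaining array to be flagged.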

How the results depend on the processing

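Each member was refitted under other scalings, filters, probe set rules and variance models and without each array in turn. Ms4a4b had no value once dim genes were left out. Ms4a4b, Ms4a4c, Ms4a4d, Ms4a6b, Ms4a6c, Ms4a6d, Ms4a7 and Ms4a14 kept their direction in all of these, and no member passed the adjusted threshold in any. Ms4a4a turned to 0.0084 with array medians set equal and to 0.075 with the replicate number as a block, and it lay between -0.17 and 0.14 when 1 array was left out. Ms4a8a lay between -0.067 and 0.57 when 1 array was left out, the lowest without LysM+/+ array 2. The correlation of Ms4a4c with Ms4a7 turned to 0.29 without the 2 farthest arrays. The cause was not tested in these cases. Over all genes, the count past the adjusted threshold was 2 with a variance per gene without moderation and 0 otherwise, where 2549 genes were at an unadjusted p under 0.05. That number ran from 1693 (without LysM+/cre array 1) to 2779 when 1 array was left out. Members at that mark numbered 2 to 4, and members higher with cre 4 to 6.

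With the replicate block, 2139 genes were at an unadjusted p under 0.05, and the Ms4a4c to Ms4a7 difference was 1.68 within replicate numbers 1 to 3, with no test. Deviations of arrays sharing a replicate number correlated at -0.11, 0.12 and 0.10, so the numbers were not taken to pair the samples. The number of arrays limits every value, and signal over background is not given by the deposited values.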

Other observations

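In 53.8% of the 22180 genes the deposited value was the same to every decimal on at least 2 of the 7 arrays, in 68.3% of genes below the median level and in 39.3% of those above it. Among genes at an unadjusted p under 0.05 the share was 24.2%. None of the 9 members had such a repeated value (0 of 9), whereas Ms4a3 and Ms4a19 had 1 value on 5 of 7 arrays and Ms4a2, Ms4a5 and Ms4a13 on 4. The SD of such dim relatives is therefore not a measure of their spread between samples. How the repeats arose was not tested.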
